A study of Drosophila melanogaster with 15 samples.

Results

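The Dpr and DIP genes of Drosophila melanogaster were chosen by name, as the 21 genes dpr1 to dpr21 and the 11 genes DIP-alpha to DIP-lambda, and all 32 were found by symbol among the 13944 protein-coding genes on the chromosomes that carry peaks. R-loops over them were taken from ssDRIP-seq, which sequences single DNA strands recovered with the S9.6 antibody against RNA:DNA hybrids. The study profiled 3 sample types, all labelled untreated: S2 cells, a cultured line first derived from late-stage embryos, whole Oregon R embryos aged 2–3 h, called early embryos, and whole Oregon R embryos aged 14–16 h, called late embryos. Each type has 2 ssDRIP replicates, 2 inputs and 1 ssDRIP sample digested with RNase H1, an enzyme that degrades the RNA strand of hybrids. Peaks were called by the authors on the replicates jointly, so each type is 1 list (28464 peaks for S2 cells, 22581 for early embryos and 28961 for late embryos) that gives position and strand but no height. A list has no replicate spread, so no difference between lists was tested here, and the sequencing depth is unknown. Whole embryos mix all cell types, so R-loops in fewer cells and weaker R-loops in every cell cannot be told apart, and the lists hold no expression values with which to check the labelled cell types.

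Dpr proteins (defective proboscis extension response) and their partners, the DIPs (Dpr-interacting proteins), are cell surface proteins of the immunoglobulin superfamily. A Dpr on one neuron binds a matching DIP on another, and the combinations help growing axons and dendrites to find synaptic partners in the neuromuscular system and the visual system. Known pairs include DIP-alpha with dpr6 and dpr10, DIP-gamma with dpr11, and DIP-delta with dpr12. Neurons form their first connections in the second part of embryogenesis, so embryos of the first age precede the nervous system and those of the second contain one.

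Most peaks over these genes lay in introns, and the sequences under 6 of them show what they look like. Overlapping peaks of one strand, from whichever list, were joined into regions. The first 4 sequences are the middle 200 bases of 4 of the widest intronic stretches that all 3 lists covered, and regions C and D are the middle 200 bases of 2 of the widest intronic regions held by the late list only. All 6 overlap no annotated exon. Capitals mark runs of 8 or more A or 8 or more T, and each sequence is read 5′ to 3′ on the strand of the peak (dm6, RefSeq). The DIP-gamma stretch lies at chr3R:28943305-28943504 on the reverse strand (sense), and region A of dpr8 at chrX:14336330-14336529 on the reverse strand (antisense). The dpr10 stretch lies at chr3L:10178114-10178313 on the forward strand (antisense), and region B of dpr8 at chrX:14452508-14452707 on the reverse strand (antisense). Region C of dpr8 lies at chrX:14404939-14405138 on the reverse strand (antisense), and region D of dpr8 at chrX:14336402-14336601 on the forward strand (sense).
DIP-gamma, all 3 lists: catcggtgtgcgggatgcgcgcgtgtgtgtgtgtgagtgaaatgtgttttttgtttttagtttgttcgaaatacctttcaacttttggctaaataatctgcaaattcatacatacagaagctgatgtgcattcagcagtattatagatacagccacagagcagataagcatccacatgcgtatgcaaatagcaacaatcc
dpr8 region A, all 3 lists: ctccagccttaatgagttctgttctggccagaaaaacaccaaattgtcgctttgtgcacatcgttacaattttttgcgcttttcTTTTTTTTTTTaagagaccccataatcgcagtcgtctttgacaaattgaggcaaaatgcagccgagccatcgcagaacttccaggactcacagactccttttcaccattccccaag
dpr10, all 3 lists: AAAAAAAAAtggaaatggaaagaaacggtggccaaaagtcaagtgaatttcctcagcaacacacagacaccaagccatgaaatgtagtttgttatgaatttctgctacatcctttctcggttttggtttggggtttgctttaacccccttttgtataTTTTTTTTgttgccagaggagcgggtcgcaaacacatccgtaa
dpr8 region B, all 3 lists: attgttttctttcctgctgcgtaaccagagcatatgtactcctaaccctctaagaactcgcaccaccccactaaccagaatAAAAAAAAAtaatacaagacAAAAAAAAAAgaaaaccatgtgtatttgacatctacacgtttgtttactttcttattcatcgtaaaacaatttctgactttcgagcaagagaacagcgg
dpr8 region C, late embryos only: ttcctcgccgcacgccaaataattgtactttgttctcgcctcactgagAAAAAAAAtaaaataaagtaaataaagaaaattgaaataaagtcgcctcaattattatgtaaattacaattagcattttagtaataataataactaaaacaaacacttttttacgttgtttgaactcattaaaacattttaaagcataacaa
dpr8 region D, late embryos only: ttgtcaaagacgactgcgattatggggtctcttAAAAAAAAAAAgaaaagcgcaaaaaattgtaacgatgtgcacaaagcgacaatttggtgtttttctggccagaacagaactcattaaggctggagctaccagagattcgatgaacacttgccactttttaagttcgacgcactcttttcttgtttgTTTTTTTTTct

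The DIP-gamma stretch held no run of 8 A or 8 T, and its GC content was 40.5%. The dpr10 stretch held a run of 9 A and a run of 8 T, and region B of dpr8 held 2 runs of A, the longer of 10 bases. Region C of dpr8, at 26.0% GC, held 1 run of 8 A. Regions A and D of dpr8 overlap on opposite strands, so the 11 T in a row of region A are the 11 A in a row of region D. The strand read in region A had a peak in every list, and the strand read in region D had one in late embryos only.

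Runs of A were counted over all peaks of the family, in the 200 bp around each peak centre on the strand of the peak. A run of 8 or more A was found in 86 of 441 peaks in S2 cells (19.5%, 95% Wilson interval 16.1–23.5%), in 98 of 206 peaks in early embryos (47.6%, 40.9–54.4%) and in 187 of 337 peaks in late embryos (55.5%, 50.1–60.7%). These intervals, like all others given here, cover counting error only. In windows of 200 bp tiled along the 32 genes, the share was 5.48% on the gene's strand and 5.90% on the other strand. Over all peaks of a list, it was 20.5% in S2 cells, 40.8% in early embryos and 51.8% in late embryos, so the family followed the order of its lists. Of the 74 regions of the family with a stretch common to all 3 lists, 53 held such a run at the middle of that stretch (71.6%, 60.5–80.6%). The share over all such regions of the genome was not computed, so this value cannot be called particular to the family. A run of 8 or more T, which is a run of A on the other strand, was found in 3.17% of the family's peaks in S2 cells, 4.85% in early embryos and 13.6% in late embryos, and in 4.44%, 6.22% and 15.9% of all peaks. The share with A in S2 cells was higher without DIP-lambda and dpr21. In windows of 400 bp, 27.2% of the family's S2 peaks held such a run with these genes and 36.8% without them, against 29.5% of all S2 peaks.

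**Figure D1:**
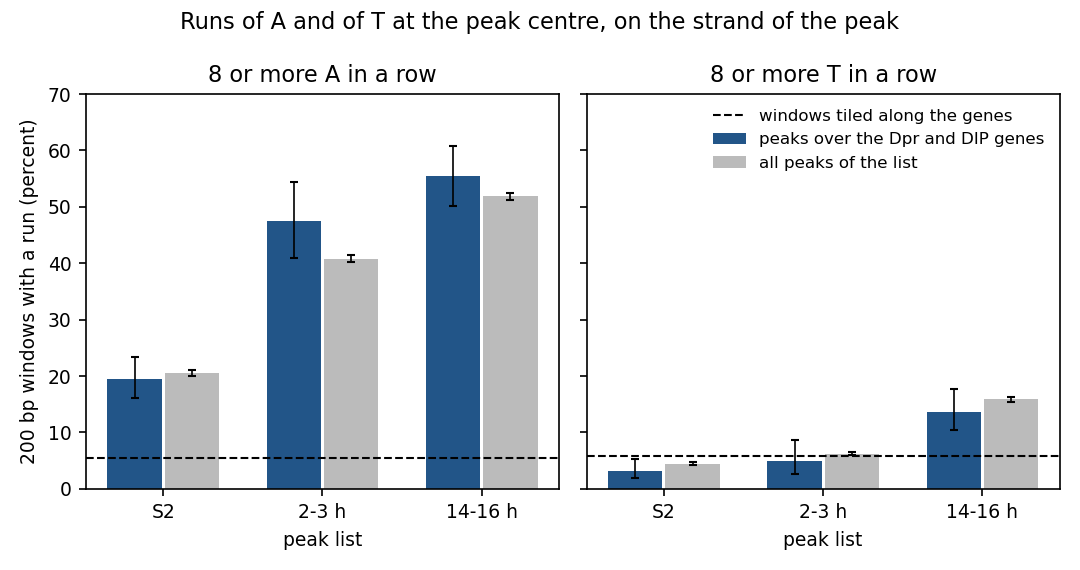
Share of 200 bp windows (percent, y axis) with 8 or more A (left) or 8 or more T (right) in a row on the strand of the peak, for peaks over the Dpr and DIP genes and for all peaks of each list (x axis). Bars carry 95% Wilson intervals and the dashed line is the share in windows tiled along the genes on their own strand; the share with A was 19.5% in S2 cells and 55.5% in late embryos over the family.

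The genes are long, and a longer gene offers more room for peaks. They ran from 3.74 kb (dpr19) to 379 kb (DIP-lambda), with a median of 32.5 kb, against a median of 2.16 kb for all protein-coding genes. The Dpr genes had a median of 22.3 kb and the DIP genes of 33.6 kb. Exons made up 7.27% of their length and the longest intron of each gene 41.7%. In all, 984 peaks lay over the 32 genes, none of which overlapped another member. The family was therefore read beside the 200 protein-coding genes nearest in length to each member.

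A sense peak, on the strand of the gene, was found in 22 of the 32 genes in S2 cells (68.8%, 51.4–82.0%), 23 in early embryos (71.9%, 54.6–84.4%) and 27 in late embryos (84.4%, 68.2–93.1%). Among all protein-coding genes the share was 29.9% in S2 cells, 26.4% in early embryos and 23.9% in late embryos. Genes nearest in length gave 24.5, 24.6 and 25.1 genes in the same order, so the family's counts were near those of other long genes. An antisense peak, on the opposite strand, was found in 25 genes in S2 cells (78.1%, 61.2–89.0%), 18 in early embryos (56.3%, 39.3–71.8%) and 27 in late embryos. The share of all protein-coding genes was 20.6%, 19.0% and 21.8%, and genes nearest in length gave 23.1, 23.1 and 24.5 genes. The count of 18 in early embryos was the one farthest from that of the genes nearest in length.

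All 11 DIP genes had a sense peak in late embryos, against 8 in early embryos and 9 in S2 cells. Of the 21 Dpr genes, 13 had one in S2 cells, 15 in early embryos and 16 in late embryos, where genes of the same length gave 15.4, 15.4 and 15.6 genes. Genes of the same length as the DIPs gave 9.52 genes in late embryos, 9.19 in early embryos and 9.11 in S2 cells. Between members, 19 genes had a sense peak in every list, 4 in both embryo lists, 3 in S2 cells and late embryos, 1 in late embryos only and 5 in none. The 4 genes of both embryo lists were dpr2, dpr7, dpr14 and DIP-alpha, and the gene of late embryos only was DIP-iota. Genes nearest in length gave 20.4 genes in every list, 2.20 in both embryo lists, 1.16 in S2 cells and late embryos, 1.36 in late embryos only and 3.52 in none. No member had a sense peak in early embryos alone, and genes nearest in length gave 0.380.

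**Figure D2:**
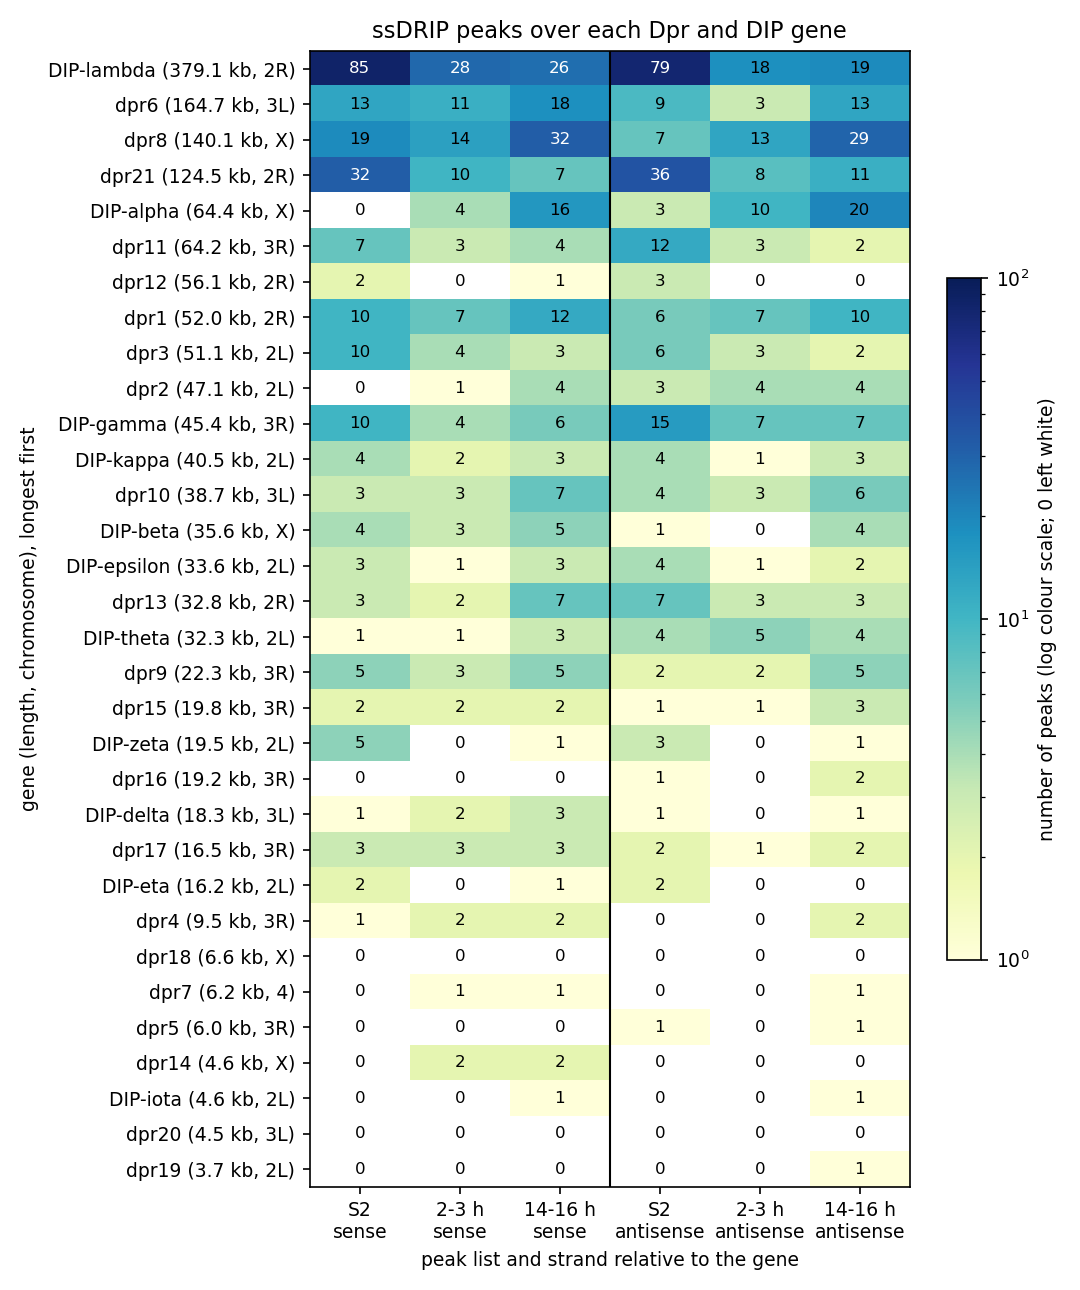
Number of ssDRIP peaks over each of the 32 genes (rows, longest first, with length and chromosome) in each list and strand (columns), printed in each cell and coloured on a log scale with 0 left white. DIP-lambda and dpr21 had most of their peaks in S2 cells, dpr8 and DIP-alpha in late embryos, and dpr18 and dpr20 had none.

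Over the family, 225 sense peaks were found in S2 cells, 113 in early embryos and 178 in late embryos, which is 14.2, 7.15 and 11.3 peaks per 100 kb of gene. Antisense peaks numbered 216, 93 and 159, or 13.7, 5.89 and 10.1 per 100 kb. Protein-coding genes of 20 kb or more had 12.0, 10.4 and 14.5 sense peaks and 12.3, 9.72 and 13.6 antisense peaks per 100 kb. Members of 20 kb or more had 14.8, 7.09 and 11.4 sense peaks per 100 kb. The family thus had fewer peaks per length than long genes in general in both early and late embryos, on both strands, and more in S2 cells.

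The higher density in S2 cells depended on DIP-lambda. When the peaks per length of the 200 genes nearest in length were applied to each member, the family had 1.19 times the expected sense peaks and 1.11 times the expected antisense peaks in S2 cells. Without DIP-lambda these ratios were 0.974 and 0.932, without dpr21 alone 1.12 and 1.015, and without both genes 0.845 and 0.777. In early embryos the ratios were 0.688 (sense) and 0.610 (antisense), and 0.677 and 0.665 without both genes. In late embryos they were 0.771 and 0.731, and 0.934 and 0.893 without both genes. With 50 genes nearest in length on the same chromosome and without both genes, the ratios in early embryos were 0.693 and 0.666. The same choice gave 0.958 and 0.897 in late embryos. The density was thus lower than in genes nearest in length in early embryos, with and without both genes. Without both genes it was also lower in S2 cells for antisense peaks (Poisson interval 0.633–0.944). The S2 sense interval without both genes, 0.693–1.02, includes equal density. With all members the S2 intervals were 1.04–1.36 (sense) and 0.968–1.27 (antisense), and the second includes equal density. With the 50 genes on the same chromosome the S2 sense interval, 0.983–1.28, includes it too. In late embryos it was lower with all members. Without both genes, the Poisson intervals of the late ratios from the 200 nearest genes were 0.788–1.10 (sense) and 0.745–1.06 (antisense). These intervals include equal density, so a lower density in late embryos was not shown without both genes. The early intervals, 0.533–0.849 and 0.515–0.845, lay below equal density. Poisson intervals take peaks as independent and leave out the spread between genes, so they are not tests. In early embryos the antisense ratio of single members went from 0 (such as dpr12) to 1.69 (DIP-gamma). No test was possible.

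**Figure D3:**
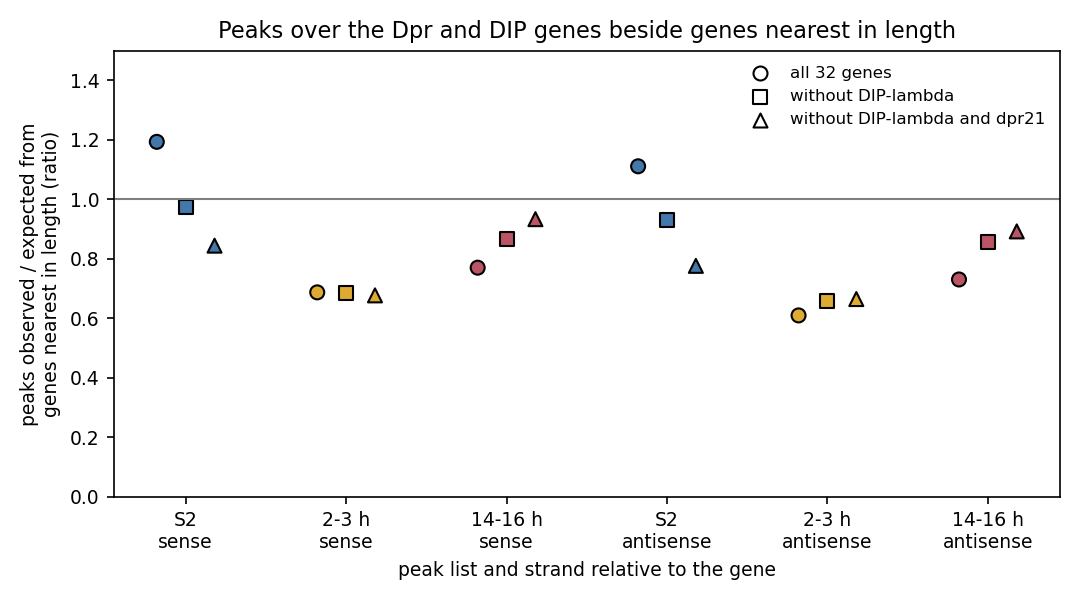
Peaks observed over the family divided by the number expected from the peaks per length of the 200 genes nearest in length (ratio, y axis), for each list and strand (x axis; colours mark the lists). Circles are all 32 genes, squares leave out DIP-lambda and triangles leave out DIP-lambda and dpr21; the S2 sense ratio is 1.19 with all genes and 0.845 without both, while the early sense ratio is 0.688 and 0.677.

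DIP-lambda (Dmel_CG45781) is the longest member, at chr2R:326768-705848 on the forward strand, in the centromere-proximal part of the arm. It held 85 sense peaks in S2 cells, 28 in early embryos and 26 in late embryos, or 22.4, 7.39 and 6.86 per 100 kb. Its antisense peaks numbered 79, 18 and 19. It had 1.90 times the sense peaks expected from genes nearest in length in S2 cells, and 0.697 and 0.464 times those in early and late embryos. The 200 genes nearest to it had a median length of 92.2 kb, so these ratios compare peaks per length and not genes of equal length. Of its 179 joined regions, 112 were held by S2 cells alone, 10 by late embryos alone and 17 by all 3 lists. Of 85 sense peaks in S2 cells, 35 overlapped an antisense peak of the same list.

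The dpr21 gene (Dmel_CG42596), at chr2R:3066499-3191011 on the forward strand, had the same order. It held 32 sense peaks in S2 cells, 10 in early embryos and 7 in late embryos, and 36, 8 and 11 antisense peaks. Together, DIP-lambda and dpr21 made up 31.9% of the length of the family and held 52.6% of its peaks in S2 cells, 31.1% in early embryos and 18.7% in late embryos. Repeats marked in the reference genome covered 32.2% of DIP-lambda and 27.1% of dpr21, against a median of 17.3% (range 8.92–36.5%) in the other 30 genes. At least 50% of the bases were repeats in 45 of 164 peaks of DIP-lambda in S2 cells, 18 of 46 in early embryos and 22 of 45 in late embryos, and in 11 of 68, 6 of 18 and 8 of 18 peaks of dpr21. This was so for 8 of 209, 10 of 142 and 10 of 274 peaks over the other 30 genes, and for 9.50%, 13.3% and 11.0% of all peaks of the lists. How reads from repeats were placed was not tested.

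The dpr8 and DIP-alpha genes, both on chromosome X, had most of their peaks in late embryos. The dpr8 gene (Dmel_CG32600, chrX:14322226-14462351, forward strand) held 19 sense peaks in S2 cells, 14 in early embryos and 32 in late embryos, and 7, 13 and 29 antisense peaks. DIP-alpha (Dmel_CG32791, chrX:3507245-3571649, reverse strand) held 0 sense peaks in S2 cells, 4 in early embryos and 16 in late embryos, and 3, 10 and 20 antisense peaks. Of the 200 genes nearest to DIP-alpha in length, 96.0% had a sense peak in S2 cells, and 170 had fewer sense peaks than DIP-alpha in late embryos. Of its 38 joined regions, 23 were held by late embryos alone, 10 by both embryo lists and none by S2 cells alone. In late embryos 11 of the 16 sense peaks of DIP-alpha and 20 of the 32 of dpr8 overlapped an antisense peak.

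Chromosome X as a whole also had more peaks in late embryos than in the other lists. It held 12.7 peaks per 100 kb in S2 cells, 20.02 in early embryos and 32.7 in late embryos. Its protein-coding genes had 7.11, 11.2 and 17.9 sense peaks per 100 kb, and the 5 members on X had 9.15, 9.15 and 21.9. The larger number of peaks over dpr8 and DIP-alpha in late embryos cannot be told apart from that of the chromosome. The other members on X differed from one another. DIP-beta held 4, 3 and 5 sense peaks and 1, 0 and 4 antisense peaks, dpr14 held 0, 2 and 2 sense peaks and no antisense peak, and dpr18 held no peak.

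**Figure D4:**
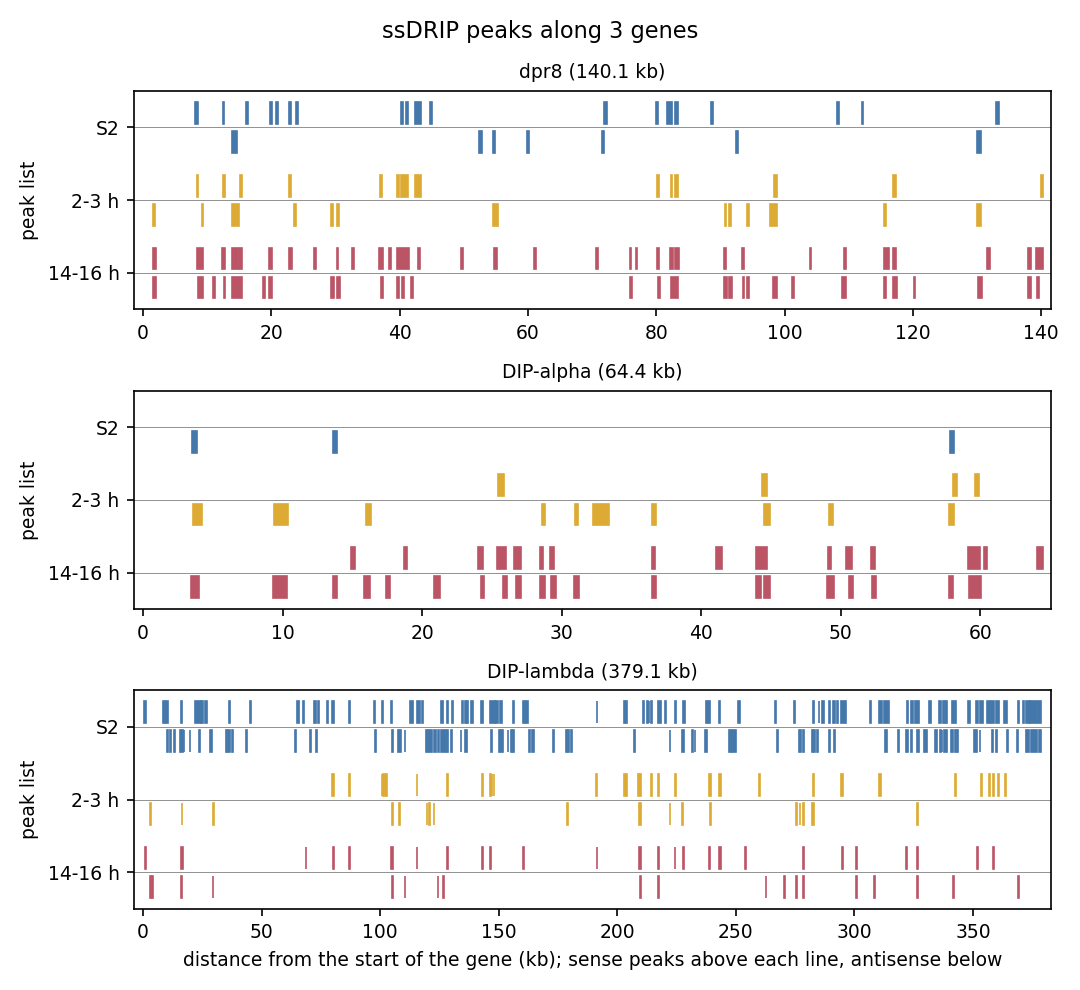
Peaks along dpr8, DIP-alpha and DIP-lambda, drawn to scale by distance from the start of the gene (kb, x axis), with 1 row per list (y axis), sense peaks above each line and antisense peaks below. DIP-alpha has no sense peak in S2 cells and 16 in late embryos, while DIP-lambda has 85 in S2 cells and 26 in late embryos.

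The known binding partners of DIP-alpha, dpr6 and dpr10, had more peaks in late than in early embryos. So did 63.8% of 1001 other genes of 20 kb or more, for sense peaks and for antisense peaks. The dpr6 gene (Dmel_CG14162, chr3L:9974651-10139360, forward strand) held 13 sense peaks in S2 cells, 11 in early embryos and 18 in late embryos, and 9, 3 and 13 antisense peaks. Per length it stayed below genes nearest in length in every list, at 0.640, 0.626 and 0.692 times their sense peaks. The widest peak of the family, 3800 bp, lay over dpr6 in S2 cells on the antisense strand (chr3L:10060161-10063960). The dpr10 gene (Dmel_CG32057, chr3L:10147454-10186108, reverse strand) held 3, 3 and 7 sense peaks and 4, 3 and 6 antisense peaks.

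DIP-gamma and its partner dpr11 had most of their peaks in S2 cells. DIP-gamma (Dmel_CG14521, chr3R:28925004-28970372, reverse strand) held 10 sense peaks in S2 cells, 4 in early embryos and 6 in late embryos, and 15, 7 and 7 antisense peaks. Of the 200 genes nearest to it in length, 192 had fewer antisense peaks in S2 cells. The dpr11 gene (Dmel_CG33202, chr3R:6529169-6593330, reverse strand) held 7, 3 and 4 sense peaks and 12, 3 and 2 antisense peaks. Of its 22 joined regions, 13 were held by S2 cells alone. Chromosome 3R as a whole had 24.8 peaks per 100 kb in S2 cells, 15.9 in early embryos and 19.4 in late embryos.

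Of the partner genes DIP-delta and dpr12, only dpr12 had fewer sense peaks per length than genes nearest in length in every list. In S2 cells, early and late embryos DIP-delta had 0.573, 1.18 and 1.36 times their sense peaks, and dpr12 0.297, 0 and 0.121 times. For antisense peaks it was 0.560, 0 and 0.472 times for DIP-delta and 0.418, 0 and 0 times for dpr12. DIP-delta (Dmel_CG34391, chr3L:5424109-5442399, forward strand) held 1 sense peak in S2 cells, 2 in early embryos and 3 in late embryos, and 1, 0 and 1 antisense peaks. The dpr12 gene (Dmel_CG34385, chr2R:5804712-5860831, forward strand) is 56.1 kb long and held 2, 0 and 1 sense peaks and 3, 0 and 0 antisense peaks. Of the 200 genes nearest to dpr12 in length, 194 had a sense peak in early embryos and 190 an antisense peak, where dpr12 had none. The DRIP-qPCR primers that the study names Untranscribed matched exactly at chr2R:5810890-5811004, within dpr12 and outside any exon. No list had a peak at this amplicon, and the nearest was an antisense peak of S2 cells at chr2R:5808775-5809041, which lies 1849 bp away. In late embryos the only peak over dpr12, of 230 bp at chr2R:5860122-5860351, lay at the end of the gene.

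Of the other members of 20 kb or more, dpr1, the founding gene of the family, held 10, 7 and 12 sense peaks in S2 cells, early and late embryos and 6, 7 and 10 antisense peaks. The dpr3 gene held 10, 4 and 3 sense peaks and 6, 3 and 2 antisense peaks, and was, with dpr21 and DIP-lambda, one of 3 genes with fewer sense peaks in late than in early embryos. In contrast, 19 genes had more sense peaks in late embryos and 10 had equal numbers. Among members of 20 kb or more, 15 of 18 had more sense peaks in late than in early embryos, while 63.8% of 1001 other genes of that length did. For antisense peaks it was 11 of 18 members (61.1%) and again 63.8% of the other genes. The dpr2 gene held 0, 1 and 4 sense peaks, and 194 of the 200 genes nearest to it in length had a sense peak in S2 cells. DIP-kappa, DIP-epsilon, DIP-theta, dpr9 and dpr13 held between 1 and 7 sense peaks in each list.

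The 14 members under 20 kb held 0 to 5 sense peaks each. DIP-zeta held 5 sense peaks in S2 cells, none in early embryos and 1 in late embryos, and DIP-eta held 2, 0 and 1. The dpr17 gene held 3 sense peaks in every list, and dpr15 held 2 in every list. An antisense peak was found in 7 of the 14 short members in S2 cells, 2 in early embryos (dpr15 and dpr17) and 10 in late embryos, while genes nearest in length gave 6.63, 6.40 and 7.23 genes. DIP-iota (chr2L:6617134-6621700) and dpr19 (chr2L:10376168-10379905) had peaks in late embryos only. The only peak over dpr19 was antisense (chr2L:10377455-10377871), and DIP-iota had 1 peak on each strand. On chromosome 4, dpr7 held 1 sense peak in early embryos (chr4:251052-251444) and 1 in late embryos (chr4:250990-251516), at the same place. The sense peaks of dpr14 also coincided between the embryo lists, at chrX:7905459-7905805 and chrX:7907396-7907662 in early embryos and chrX:7905421-7905839 and chrX:7907425-7907675 in late embryos. The dpr5 and dpr16 genes had antisense peaks only, in S2 cells and late embryos. The dpr18 gene (chrX:16063738-16070304) and the dpr20 gene (chr3L:852720-857248) had no peak on either strand in any list.

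Peaks were placed within the genes much as the introns are. Peak centres were intronic for 94.2% of sense peaks in S2 cells, 87.6% in early embryos and 87.6% in late embryos. The longest intron of each gene, with 41.7% of the length, held 36.9%, 37.2% and 38.2% of sense peaks. Centres within 500 bp of an annotated transcript end were found for 3 of 225 sense peaks in S2 cells (1.33%, 0.454–3.85%), 4 of 113 in early embryos (3.54%, 1.39–8.75%) and 15 of 178 in late embryos (8.43%, 5.17–13.4%). In other protein-coding genes of 20 kb or more the shares were 3.88%, 6.40% and 6.25%. The family's shares include its 14 members under 20 kb, of which dpr4, dpr14 and DIP-delta had end peaks in late embryos. The comparison is thus not matched for length, here and for transcript starts below. The 15 peaks lay over 12 members, dpr2, dpr4, dpr6, dpr8, dpr9, dpr12, dpr13, dpr14, DIP-alpha, DIP-beta, DIP-delta and DIP-kappa. At dpr9 a peak sat at a transcript end in every list (chr3R:15056211-15056737 in S2 cells, chr3R:15056206-15056718 in early embryos and chr3R:15056212-15056719 in late embryos). Near transcript starts the counts were 3, 4 and 6 sense peaks, or 1.33%, 3.54% and 3.37%, against 4.72%, 5.76% and 5.37% in other genes of 20 kb or more, and dpr1 had one in every list (chr2R:20698630-20699165 when joined).

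In late embryos, peaks often came in pairs on both strands. Of the family's sense peaks, 94 of 178 in late embryos (52.8%) overlapped an antisense peak of the same list, against 16 of 113 in early embryos (14.2%) and 63 of 225 in S2 cells (28.0%). In other protein-coding genes of 20 kb or more the shares were 59.0%, 26.6% and 26.3%, while the family's shares include its members under 20 kb. No peak of the lists shared 90% of its bases reciprocally with a peak on the other strand, so these shares count less complete overlaps. The family's share in early embryos was below that of long genes. Of the 159 antisense peaks in late embryos, 9 overlapped another annotated gene on their own strand, so most had no annotated transcript on their strand.

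Joining the peaks gave 682 regions over the family, 346 sense and 336 antisense. S2 cells alone held 277 of them (40.6%, 37.0–44.3%), late embryos alone 171 (25.1%, 22.0–28.5%) and early embryos alone 15 (2.20%, 1.34–3.60%). Over the genome the shares were 27.5%, 25.7% and 7.07%. Regions held by all 3 lists numbered 76 (11.1%), against 13.0% over the genome. Without DIP-lambda and dpr21, S2 cells alone held 27.2% of 430 regions, late embryos alone 37.0% and early embryos alone 2.79%. The low share of early embryos was present with and without these genes, and the higher share of S2 cells was not. The share of late embryos alone was above that of the genome only without these genes (32.5–41.6%). The genome's regions include those outside genes and in short genes, so these shares are not matched for length.

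**Figure D5:**
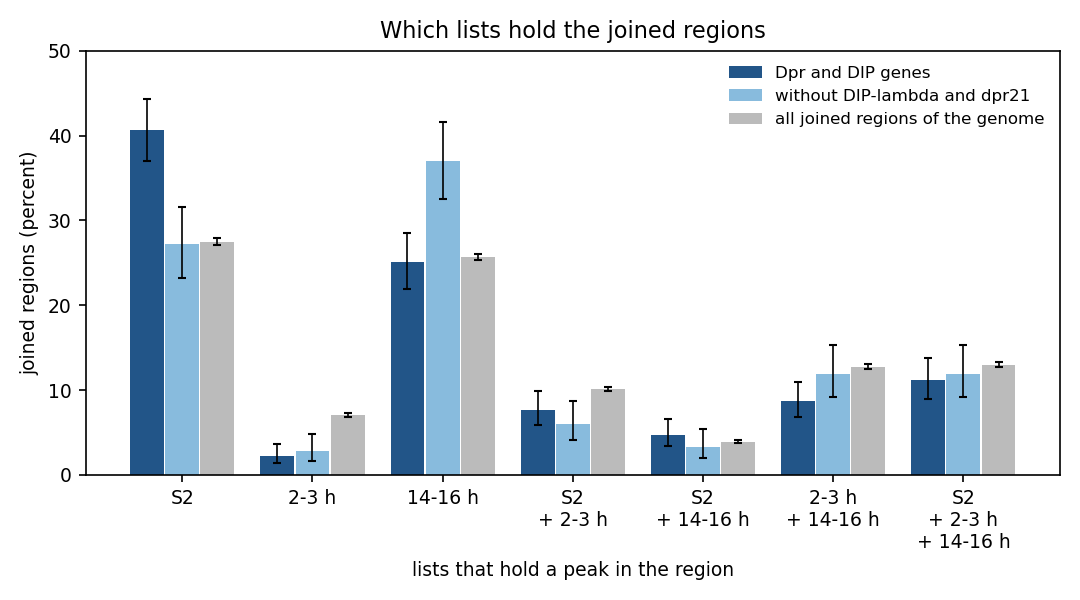
Share of joined regions (percent, y axis, with 95% Wilson intervals) held by each list or combination of lists (x axis), over the Dpr and DIP genes, over the family without DIP-lambda and dpr21, and over the genome. Regions of early embryos alone make up 2.20% over the family and 7.07% over the genome.

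Of the 76 regions held by all 3 lists, 46 were sense and 30 antisense, and 43 and 28 of them had their middle in an intron. The sense regions lay over 15 members, where genes nearest in length gave 16.5, with 13 over DIP-lambda, 8 over dpr8, 5 over dpr1, 4 over dpr21 and 3 over dpr6. DIP-gamma, DIP-beta and dpr9 had 2 each. DIP-beta carried its regions at chrX:21426685-21427210 and chrX:21453215-21453772. Single sense regions were found at dpr3 (chr2L:2070750-2071251), dpr4 (chr3R:11535249-11535772), dpr11 (chr3R:6560097-6560589), dpr15 (chr3R:12146991-12147940), dpr17 (chr3R:12106119-12106639), DIP-delta (chr3L:5433238-5433590) and DIP-epsilon (chr2L:6398187-6398729). The region of DIP-delta had its middle in a coding exon. Antisense regions of all 3 lists lay over 14 members, where genes nearest in length gave 14.9, of which dpr10 had 3, DIP-alpha and DIP-theta 2 each and dpr13 and DIP-kappa 1 each, and these 5 genes had no sense region of that kind. Thus 20 of the 32 members had a region that all 3 lists held, and genes nearest in length gave 19.8 genes.

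The Beat and Side genes, a second network of neuronal immunoglobulin receptors and ligands, gave a comparison of similar length. All 22 matched by symbol, with a median of 41.2 kb. A sense peak was found in 20 of them in S2 cells, 18 in early embryos and 21 in late embryos, where genes nearest in length gave 19.1, 19.2 and 19.7. An antisense peak was found in 21, 16 and 19, where genes nearest in length gave 18.3, 18.5 and 19.5. They had 20.2, 7.01 and 12.5 sense peaks and 17.2, 5.31 and 11.1 antisense peaks per 100 kb. The Dpr and DIP genes, at 14.2, 7.15 and 11.3 sense peaks, had a close value in early embryos. Without DIP-lambda the family had 11.7 sense peaks per 100 kb in S2 cells, 7.08 in early embryos and 12.7 in late embryos, so the higher value in S2 cells than in late embryos rested on that gene.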

How the data were processed

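The deposited files were 3 peak lists from the authors, each with the start, end and length of a peak in bp, a unit recorded as other, and with its strand. Per their methods, the authors trimmed reads (Trimmomatic), aligned them to dm6 (bowtie2), marked duplicates (Picard), separated alignments by strand (SAMtools) and called peaks jointly on the replicates (MACS2). The methods also remove peaks with 90% reciprocal overlap on both strands, and the lists hold none. A site under the caller's threshold is absent from a list. Starts were converted to counting from 1, and genes came from the RefSeq annotation of dm6. A peak counted for a gene when it overlapped the span by at least 1 bp, as sense on the strand of the gene and as antisense on the other. Expected peaks were the peaks per length of the 200 protein-coding genes nearest in length, members left out, times the length of the member. This scaling was chosen after the values were seen.

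The members and lists were chosen with earlier results of these data known. The rule asked for all members to be accounted for, for the position of each peak of the 6 members with most peaks and of members with a sense region in all 3 lists, and for sequences of the widest intronic regions. The 984 peaks were too many for this, so positions were given for selected peaks and regions, chosen after their values were seen. Alternatives changed the overlap, the gene span, the peaks used, the joining, the genes nearest in length and the members. Counting was checked on simulated peaks with known answers. Python 3.11.15 was used with matplotlib 3.10.9, SciPy 1.17.1 and NumPy 2.4.6.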

Additional observations from a re-analysis of the deposited data

How the results depend on the processing

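No paired analysis was possible because the replicates are pooled in each list. Over all alternatives, 157 values stayed close to those reported and 32 moved. With only peaks wider than the median of their list, sense peaks numbered 133, 42 and 87 in S2 cells, early embryos and late embryos, antisense peaks 118, 38 and 71, and genes with a sense peak in early embryos 15. The ratio to genes nearest in length was then 1.42 (sense, S2 cells), 0.504 (sense, early embryos) and 0.489 (antisense, early embryos). After leaving out peaks with a 50% reciprocal overlap across strands, late embryos had 116 sense and 98 antisense peaks. The late ratios were then 0.904 (sense) and 0.853 (antisense). Regions held by 1, 2 and 3 lists made up 78.6%, 14.3% and 7.04% with joining by 50% reciprocal overlap, and 76.3%, 16.1% and 7.53% with wide peaks.

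The following alternatives were chosen after seeing the data. Without DIP-lambda the ratio was 0.974 (sense, S2 cells), 0.932 (antisense, S2 cells) and 0.856 (antisense, late embryos). Without DIP-lambda and dpr21 S2 cells had 0.845 (sense) and 0.777 (antisense), and late embryos 0.934 and 0.893. With the mean number of peaks of the genes nearest in length, not scaled to the length of the member, S2 cells had 1.58 and 1.49, early embryos 0.917 and 0.825, and late embryos 1.03 and 0.986. That expectation is too low for the longest members by construction, since the genes nearest to them are shorter. The ratio in early embryos was under 1 in each alternative computed, from 0.504 to 0.917 (sense) and from 0.489 to 0.825 (antisense). No height or depth is known for any peak, so a peak missing from a list may lie just under its threshold.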
